A study of Homo sapiens with 4 samples.

Results

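The G1 cyclins, cyclin-dependent kinases (CDKs) and inhibitors examined here were 10 genes listed by name, CCND1, CCND3, CCNE1, CCNE2, CDK2, CDK4, CDK6, CDKN1B, CDKN2A and RB1. Each symbol mapped to 1 of the 60671 Ensembl gene identifiers, and all 10 were measured in every library. RNA-seq was performed on 2 established cell lines from human prostate carcinoma, 22RV1 and PC3, after stable lentiviral expression of an shRNA against the RNA helicase DDX52 (shDDX52) or of a control shRNA (shCON). The transduced cells were selected with puromycin, and DDX52 was targeted with a single shRNA sequence, so an effect of DDX52 loss and one of that hairpin cannot be told apart. Each of the 4 conditions had 1 library. Replicate error is therefore unknown, and no test was made between single libraries.

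These genes control the passage from G1 into S phase. D-type cyclins bind CDK4 and CDK6, E-type cyclins bind CDK2, and the active kinases phosphorylate the retinoblastoma protein, which then releases E2F transcription factors to switch on genes for DNA replication. INK4 proteins such as the CDKN2A product p16 bind CDK4 and CDK6, while CIP/KIP proteins such as p27, encoded by CDKN1B, bind cyclin-CDK complexes. CDK4 is also a known target gene of c-Myc, the transcription factor whose signaling was the subject of the study.

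c-Myc binds DNA at the E-box CACGTG. This motif was searched in the RefSeq promoter windows of the members (GRCh38.p14, 250 bases before to 50 bases after a start), and the windows of the partner kinases CDK4 and CDK6 are shown because they held the only matches. Both sequences are written 5′ to 3′ on the strand of the gene, with E-boxes in capitals. The CDK4 window is at chr12:57752261-57752560 on the minus strand and the CDK6 window at chr7:92836524-92836823 on the minus strand.
CDK4: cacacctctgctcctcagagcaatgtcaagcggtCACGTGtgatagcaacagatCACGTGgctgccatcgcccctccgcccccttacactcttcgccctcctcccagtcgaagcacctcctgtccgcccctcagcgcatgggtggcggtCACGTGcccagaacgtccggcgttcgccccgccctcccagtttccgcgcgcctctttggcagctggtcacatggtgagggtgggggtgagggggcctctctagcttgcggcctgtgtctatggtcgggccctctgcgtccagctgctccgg
CDK6: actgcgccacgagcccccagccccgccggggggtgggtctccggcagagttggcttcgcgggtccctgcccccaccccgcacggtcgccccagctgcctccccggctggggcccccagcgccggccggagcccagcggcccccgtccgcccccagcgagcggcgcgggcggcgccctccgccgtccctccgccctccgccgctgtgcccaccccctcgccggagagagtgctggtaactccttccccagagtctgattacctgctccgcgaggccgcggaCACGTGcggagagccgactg
The CDK4 window held 3 E-boxes, which began 216, 196 and 101 bases before the start, and the CDK6 window held 1. Of all 35116 windows in the table, 7.26% held at least 1 E-box and 0.0940% held 3 or more. Windows were found for 7 of the 10 members, 11 windows in all, and the other 9 windows had no E-box. CCND1, CCNE2 and CDK2 had no entry, and the only RB1 window lay well inside the gene, far from its GENCODE 29 start. An E2F core, searched on both strands as TTCCCGC or TTCGCGC or TTGCCGC or TTGGCGC, matched 0 of the 11 windows and 4553 of all windows. A match describes the letters of a window and does not show binding.

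The target of the shRNA was checked first. DDX52 was 4.88 TPM (transcript abundance corrected for length and scaled to a common total per library) in 22RV1 shCON and 1.20 in 22RV1 shDDX52, and 9.20 in PC3 shCON and 2.07 in PC3 shDDX52. Pairs of values below give shCON before shDDX52. MYC was at 169 and 147 TPM in 22RV1 cells and at 192 and 122 TPM in PC3 cells. The luminal marker KLK3 was 6.84 and 4.51 TPM in 22RV1 and stood at 0 in PC3, and CAV1 was 162 and 130 TPM in PC3 and under 1 TPM in 22RV1. Nuclear protein-coding genes held 85.0% and 83.7% of the listed TPM in 22RV1 and 88.4% and 81.3% in PC3. Nuclear rRNA genes held from 0.0872% to 3.13%, and the highest share was in PC3 shDDX52. Read numbers cannot be recovered from TPM, so depth is unknown and values carry no counting interval.

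The members spanned levels from 1.18 to 670 TPM. CCND1 had the highest TPM in both 22RV1 libraries, and CDK4 in both PC3 libraries. CDK4, CCND1 and CDKN2A took the 3 highest places in every library, while CCNE2, RB1 and CDK6 took the 3 lowest in that order. With 1 library per condition, it was not tested which neighbours in this order differ beyond replicate spread.

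**Figure D1:**
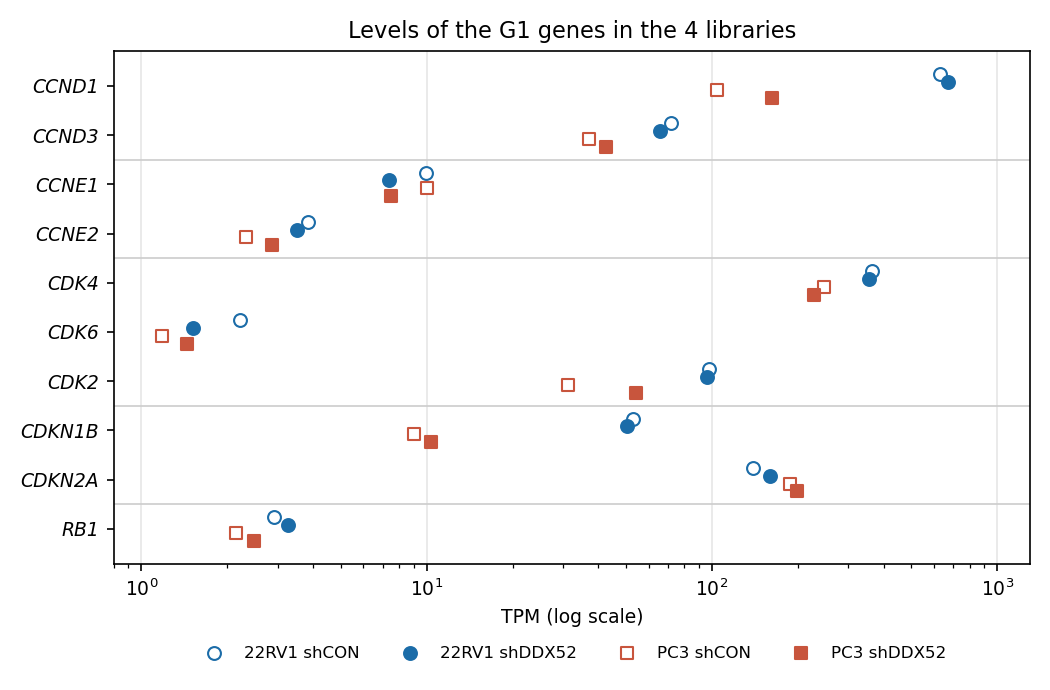
TPM of each of the 10 G1 genes (x axis, log scale) in the 4 libraries, with 22RV1 as circles, PC3 as squares, shCON open and shDDX52 filled. In 22RV1 the open and filled circles of CDK4, CDK2 and CDKN1B nearly coincide, whereas in PC3 the shDDX52 square of CCND1 (163 TPM) and of CDK2 (54.0 TPM) lies to the right of the shCON square (104 and 31.2 TPM).

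Between shDDX52 and shCON cells, no G1 gene changed by 1.5-fold or more in 22RV1. The largest difference there was −31.2%, for the weakly expressed CDK6. In PC3 the largest differences were higher values of CDK2, at 1.73 times the control, and of CCND1, at 1.57 times. CCNE1 was lower in both cell lines, with differences of −25.7% in 22RV1 and −25.6% in PC3, and CDK4 differed by −2.20% and −8.01%. In RNA from whole cultures, fewer cells expressing a gene and less RNA per cell cannot be told apart. Changes are also given as a log2 ratio, the log2 of the shDDX52 TPM plus 1 over the shCON TPM plus 1, in which the added 1 shrinks the change of weakly expressed genes.

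All 10 members passed the filter of 1 TPM, and 0 reached a 2-fold change on this scale in either cell line. As background, among the 14438 genes that reached 1 TPM in 22RV1, 2.86% were 2-fold lower or more and 2.24% were 2-fold higher or more. In PC3 these shares were 3.44% and 2.86% of 14262 genes. At 1.5-fold, 0 members were lower and 0 higher in 22RV1, against 8.47% and 5.61% of all genes. In PC3, 0 members were lower and 2 were higher at 1.5-fold, CCND1 and CDK2, against 9.84% and 8.95% of all genes. The median log2 ratio of the members was −0.05 in 22RV1, where that of all genes was −0.076, and 0.17 in PC3, where that of all genes was −0.036. In 22RV1, 7 members were below 0 and 3 above, where 58.8% of all genes were below 0 and 40.9% above, so the members' split was near that of all genes. In PC3, 2 members were below 0 and 8 above, where 53.5% of all genes were below 0 and 46.3% above. Over both cell lines, 3 members were above 0 in each (CCND1, CDKN2A and RB1), 2 were below 0 in each (CCNE1 and CDK4), and 5 were below 0 in 22RV1 and above 0 in PC3. The signs of CDK4 in both cell lines and of CDK2 in 22RV1 turned under some of the scalings tried, and CDKN1B in 22RV1 came to 0.00 under one of them. The shares of all genes with the same or opposite signs in the 2 cell lines were not computed. The member counts of 3, 2 and 5 therefore have no background. The difference between the cell lines was not tested.

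Among the D-type cyclins, CCND1 (cyclin D1, ENSG00000110092) had 631 TPM in 22RV1 cells with shCON against 670 with shDDX52, a difference of 6.17%. PC3 cells had 104 TPM of CCND1 with shCON against 163 with shDDX52, a difference of 56.6%. CCND3 (cyclin D3, ENSG00000112576, chromosome 6, 41934933 to 42050357, minus strand) was 72.0 TPM in 22RV1 shCON cells and 65.7 in 22RV1 shDDX52 cells, and 37.1 in PC3 shCON and 42.4 in PC3 shDDX52. The knockdown library was thus the higher one for CCND1 in both cell lines and for CCND3 in PC3 alone. The log2 ratios of CCND1 were 0.09 in 22RV1 and 0.64 in PC3, and those of CCND3 were −0.13 and 0.19.

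The E-type cyclins were expressed at low levels. CCNE1 (cyclin E1, ENSG00000105173, chromosome 19, 29811898 to 29824308, plus strand) was 9.96 TPM in 22RV1 shCON cells and 7.40 in 22RV1 shDDX52 cells, and PC3 had 10.04 TPM with shCON and 7.47 with shDDX52. CCNE1 thus had nearly the same level in both control libraries and was lower with shDDX52 by about the same amount in each cell line, with a log2 ratio of −0.38 in both. Over the scalings, pseudocounts and filters tried, its log2 ratio stayed between −0.42 and −0.27 in both. CCNE2 (cyclin E2, ENSG00000175305) was 3.84 and 3.50 TPM in 22RV1 and 2.32 and 2.87 TPM in PC3, with log2 ratios of −0.11 and 0.22.

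The kinase CDK4 (ENSG00000135446) was at 363 and 355 TPM in 22RV1, which gives a log2 ratio of −0.03. PC3 cells had 247 TPM of CDK4 with shCON and 227 with shDDX52, which gives −0.12. These values lie close to 0, and their sign is not fixed, because the log2 ratio of CDK4 lay between −0.03 and 0.04 in 22RV1 and between −0.12 and 0.01 in PC3 over the scalings, pseudocounts and filters tried. In the same pairs of libraries MYC had log2 ratios of −0.20 and −0.65. These are mRNA values, and by western blot the study found no significant decrease of c-Myc after DDX52 knockdown. A relation of MYC to CDK4 was not tested. CDK6 (ENSG00000105810, chromosome 7, 92604921 to 92836594, minus strand), which shares the D-type cyclins with CDK4, was 2.21 and 1.52 TPM in 22RV1 and 1.18 and 1.44 TPM in PC3. Its log2 ratios were −0.35 and 0.16. CDK2 (ENSG00000123374), the partner of the E-type cyclins, was 97.7 TPM in 22RV1 shCON cells and 96.1 in 22RV1 shDDX52 cells, a log2 ratio of −0.02 that became 0.05 once the median of all genes was set to 0. PC3 cells had 31.2 TPM of CDK2 with shCON and 54.0 with shDDX52, a difference of 73.3% and a log2 ratio of 0.77, the highest of the 10 members.

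Of the inhibitors among the members, CDKN1B (ENSG00000111276, chromosome 12, 12715058 to 12722371, plus strand) was 53.1 TPM in 22RV1 shCON cells and 50.3 in 22RV1 shDDX52 cells, and 9.04 in PC3 shCON and 10.3 in PC3 shDDX52. Its log2 ratios were −0.08 and 0.17. CDKN2A (ENSG00000147889, chromosome 9, 21967753 to 21995301, minus strand) was 140 and 160 TPM in 22RV1 and 188 and 198 TPM in PC3, with log2 ratios of 0.20 and 0.08. The CDKN2A locus encodes both p16 and the unrelated p14ARF from separate first exons, and the gene-level values do not separate their transcripts. RB1, the retinoblastoma gene (ENSG00000139687, chromosome 13, 48303726 to 48599436, plus strand), was 2.92 and 3.26 TPM in 22RV1 and 2.14 and 2.48 TPM in PC3, with log2 ratios of 0.12 and 0.15. Both genes had the higher value in the shDDX52 library of each cell line, and both lay inside the 5th to 95th percentile range of genes of like TPM described next.

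As no replicates exist, each log2 ratio was set beside those of all other genes whose mean TPM lay within 2-fold of the member in the same pair of libraries. In 22RV1, all 10 members lay between the 5th and the 95th percentile of these genes. In PC3, 8 of the 10 did, and the exceptions were CCND1 and CDK2. The log2 ratio of CCND1 in PC3 was above that of 97.2% of 1454 genes, whose 5th and 95th percentiles were −0.58 and 0.44. The log2 ratio of CDK2 in PC3 was above that of 97.6% of 3100 genes, with percentiles of −0.67 and 0.55. PC3 shDDX52 was also the library with the highest rRNA share and the lowest protein-coding share, and on TPM recomputed over nuclear protein-coding genes the log2 ratios were 0.77 for CCND1 and 0.90 for CDK2, with the median of all genes moved by 0.123. For CCNE1 the shares were 19.2% in 22RV1 and 17.1% in PC3, and for CDK4 they were 47.5% and 49.0%. These shares describe how far genes spread between the same 2 libraries and are no measure of replicate error.

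**Figure D2:**
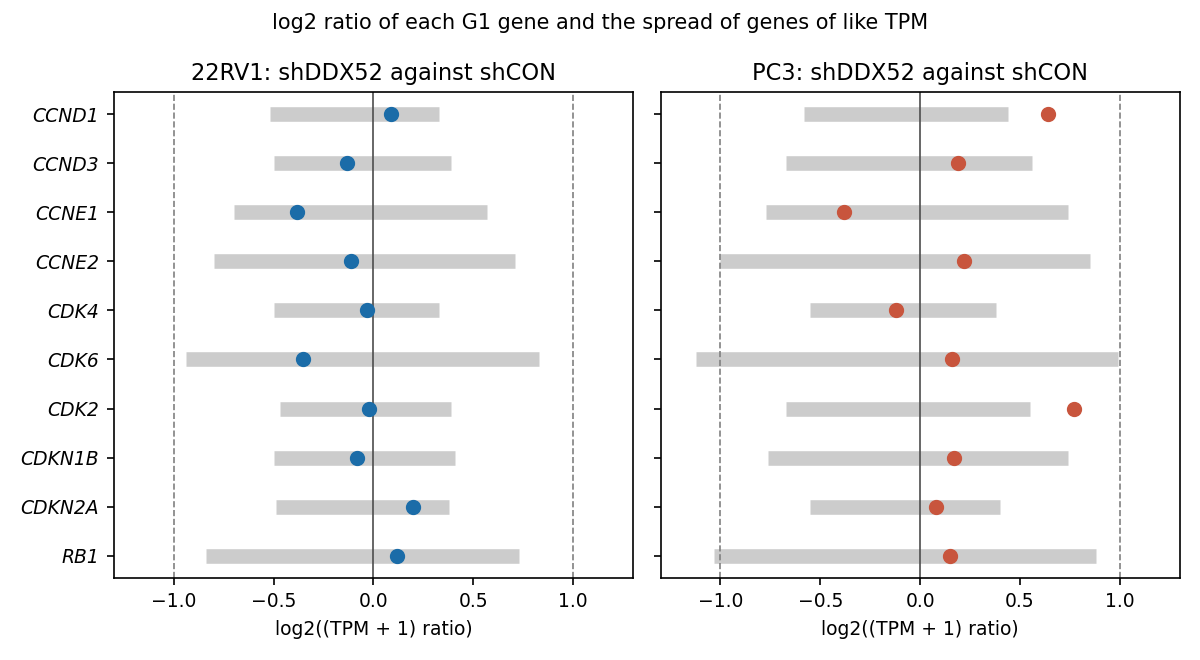
log2 ratio of shDDX52 against shCON for each G1 gene (points) in 22RV1 (left) and PC3 (right), with grey bars from the 5th to the 95th percentile of genes of like TPM and dashed lines at a 2-fold change. All points lie inside the grey bars except CCND1 (0.64) and CDK2 (0.77) in PC3, which lie to the right of theirs.

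Because TPM is corrected for length, family members can be compared within a library. CCND1 held 89.8% and 91.1% of the summed TPM of the D-type cyclins in 22RV1 cells and 73.7% and 79.4% in PC3 cells, and CCND3 held the rest, since CCND2 was listed at 0 in all 4 libraries. CDK4 held between 99.4% and 99.6% of the summed TPM of CDK4 and CDK6. CCNE1 held between 67.9% and 81.2% of the summed TPM of the E-type cyclins. CDKN2A held between 64.1% and 78.8% of the INK4 pool. Among the pocket proteins, RB1 held between 18.3% and 25.1%, and its relative RBL2 had the highest TPM in every library.

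The family sum of the CIP/KIP inhibitors was higher with shDDX52 in both cell lines. This pool (CDKN1A, CDKN1B and CDKN1C) was 166 TPM in 22RV1 shCON cells and 241 in 22RV1 shDDX52 cells, and 46.2 in PC3 shCON and 94.5 in PC3 shDDX52. The higher sums lay with CDKN1A, which encodes p21, a CDK inhibitor known as a target gene of p53. CDKN1A was 109 and 186 TPM in 22RV1 and 31.2 and 76.3 TPM in PC3, so the share of CDKN1B in the pool was 31.9% and 20.9% in 22RV1 and 19.6% and 10.9% in PC3. The D-type cyclin pool was 703 and 736 TPM in 22RV1 and 141 and 205 TPM in PC3. The ratio of summed D-type cyclin TPM to summed CIP/KIP TPM was therefore lower with shDDX52 in both cell lines, at 4.23 and 3.06 in 22RV1 and 3.05 and 2.17 in PC3. The ratio of E-type cyclin TPM to CDK2 TPM was 0.141 and 0.113 in 22RV1 and 0.396 and 0.191 in PC3. The other ratios formed were higher with shDDX52 in both cell lines. D-type cyclins to CDK4 and CDK6 gave 1.93 and 2.07 in 22RV1 and 0.568 and 0.897 in PC3. INK4 inhibitors to CDK4 and CDK6 gave 0.597 and 0.666 in 22RV1 and 1.02 and 1.10 in PC3. CIP/KIP inhibitors to CDK2 gave 1.70 and 2.50 in 22RV1 and 1.48 and 1.75 in PC3. The INK4 pool stayed at 253 and 252 TPM in PC3 and was 218 and 237 TPM in 22RV1. These are ratios of mRNA and give no measure of protein complexes.

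**Figure D3:**
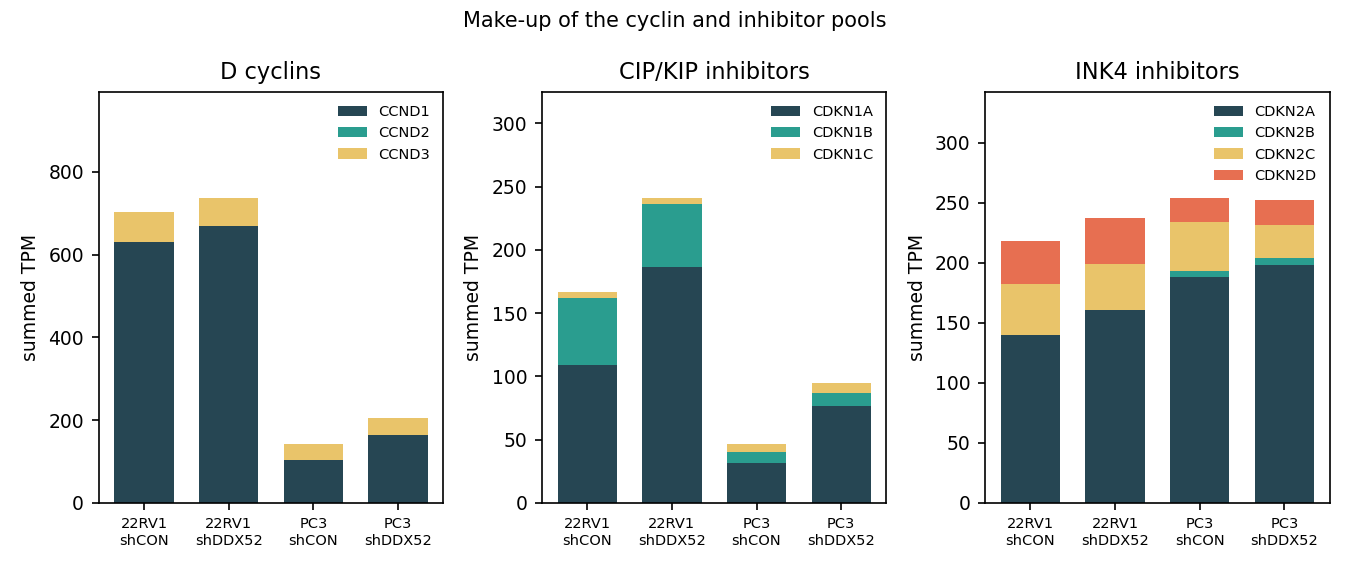
Summed TPM of the D-type cyclins, the CIP/KIP inhibitors and the INK4 inhibitors in the 4 libraries, with bar segments for each gene. CDKN1A makes up most of the higher CIP/KIP bars with shDDX52 (186 against 109 TPM in 22RV1 and 76.3 against 31.2 TPM in PC3), while the CDKN1B segment differs by under 3 TPM in each cell line.

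Between the cell lines, CCND1, CDKN1B and CDK2 were lower in PC3, while CCNE1 had nearly equal TPM. The values of the cell lines came in separate tables, and levels across the tables rest on the TPM scale alone. In the shCON libraries, CCND1 was 631 TPM in 22RV1 and 104 in PC3, so PC3 had 0.165 times the 22RV1 level, a log2 ratio of −2.59 for PC3 against 22RV1. In the shDDX52 libraries the log2 ratio of CCND1 was −2.03. CDKN1B was lower in PC3 with log2 ratios of −2.43 in the shCON and −2.18 in the shDDX52 libraries. CDK2 had log2 ratios of −1.62 in the shCON libraries and −0.82 in the shDDX52 libraries, so it passed 2-fold in the former alone. CDKN2A was higher in PC3, with log2 ratios of 0.43 and 0.31, and CCNE1 was at 0.01 in both pairs of libraries. The other members were lower in PC3 in both pairs, by less than 2-fold.

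Of the 10 members, 3 were lower by 2-fold or more in PC3 shCON than in 22RV1 shCON and 0 were higher, against 21.3% lower and 19.9% higher among 15727 genes. In the shDDX52 libraries, 2 were lower and 0 higher, against 20.2% lower and 21.0% higher among 15598 genes. The median log2 ratio of the members was −0.55 and −0.46, against −0.067 and −0.009 for all genes.

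**Figure D4:**
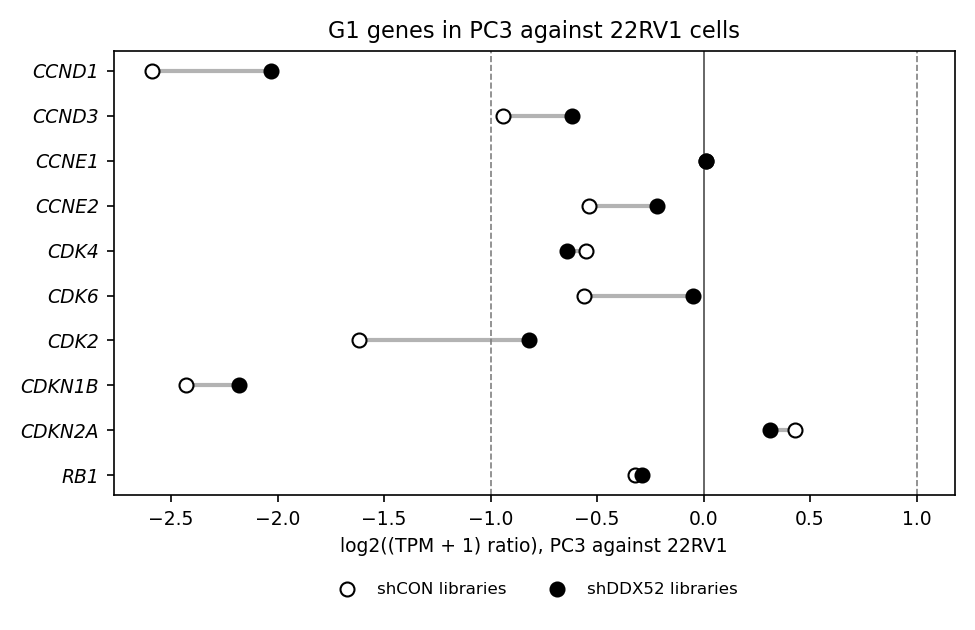
log2 ratio of PC3 against 22RV1 for each G1 gene in the shCON libraries (open) and in the shDDX52 libraries (filled), with dashed lines at a 2-fold difference. CCND1 and CDKN1B lie below −2 in both pairs, CDK2 moves from −1.62 to −0.82, and CCNE1 lies at 0.01 in both.

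The other genes of the G1/S pathway were taken as 7 lists with 48 genes in all, of which 45 passed the filter of 1 TPM in 22RV1 and 47 in PC3. Of all genes, 2.86% were lower and 2.24% higher by 2-fold or more in 22RV1, and 3.44% and 2.86% in PC3. On the scale with 1 added to each TPM, 0 of the list genes changed 2-fold in 22RV1. In PC3, 1 was lower and 1 higher by 2-fold or more on this scale. The gene at least 2-fold higher in PC3 was CDKN1A, with a log2 ratio of 1.26, and its log2 ratio in 22RV1 was 0.76. Among genes of like TPM, 99.3% in PC3 and 99.0% in 22RV1 had a lower log2 ratio than CDKN1A. Of the list genes, this position was computed for CDKN1A alone. It was named because it passed 2-fold, and also as the gene with the highest mean TPM among the other inhibitors. Its high position in PC3 restates that it passed 2-fold there and adds no separate support. The gene at least 2-fold lower in PC3 was the minor kinase CDK3, from 3.29 TPM with shCON to 0.52 with shDDX52, against 1.26 and 1.27 TPM in 22RV1. In GENCODE 29, 91.2% of the exon bases of CDK3 also belong to the readthrough gene TEN1-CDK3, which was 1.39 and 1.62 TPM in PC3, so the CDK3 value may depend on how shared reads were divided.

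No other gene of the lists passed 2-fold in either cell line on the scale with 1 added. In TPM without the added 1, 2 weakly expressed genes also did so in PC3. They were E2F7, at 1.94 and 4.29 TPM, and CCNA1, at 2.86 and 1.17 TPM, both named after their values were seen. The counts below 0 that follow stand beside 58.8% of all genes below 0 in 22RV1 and 53.5% in PC3. The E2F and DP factors, which activate or repress S-phase genes, had medians of −0.12 in 22RV1 with 7 of 10 below 0 and of 0.08 in PC3 with 4 of 10 below 0. The 14 E2F target genes, which encode replication and nucleotide synthesis proteins, had medians of −0.11 in 22RV1 with 10 below 0 and of −0.02 in PC3 with 7 below 0. TK1, the target gene with the highest mean TPM, was 264 and 266 TPM in 22RV1 and 439 and 455 TPM in PC3. TFDP1, which encodes the dimer partner of E2F proteins, was 77.2 and 72.1 TPM in 22RV1 and 128 and 121 TPM in PC3. CKS1B, a subunit of the ubiquitin ligase that targets p27, was 337 and 277 TPM in 22RV1 and 418 and 351 TPM in PC3, and the 8 turnover genes had medians of −0.21 and −0.12.

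The median of the CDK activators was −0.02 in 22RV1 and −0.12 in PC3. MNAT1, which assembles the CDK-activating kinase, was 12.0 and 13.9 TPM in 22RV1 and 116 and 93.3 TPM in PC3. The other cyclins and CDKs, 3 genes above the filter in 22RV1 and 4 in PC3, had medians of −0.10 and −0.47. The PC3 median rested on the weakly expressed CDK3 and CCNA1, with log2 ratios of −1.50 and −0.83, beside −0.11 for CDK1 and 0.08 for CCNA2, where CCNA1 and CCNA2 were named after their values were seen. It was −0.02 with a filter at 5 TPM, −0.11 with no filter, −0.23 with a pseudocount of 5 and −0.67 with one of 0.1. In this list the mitotic kinase CDK1 had the highest mean TPM, at 21.7 and 20.2 TPM in 22RV1 and 90.4 and 83.5 TPM in PC3. The other inhibitors had medians of 0.06 and 0.09. The RB1 relatives RBL1 and RBL2 had medians of −0.35 and 0.01, and RBL2 was 11.3 and 8.99 TPM in 22RV1 and 4.35 and 4.15 TPM in PC3.

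**Figure D5:**
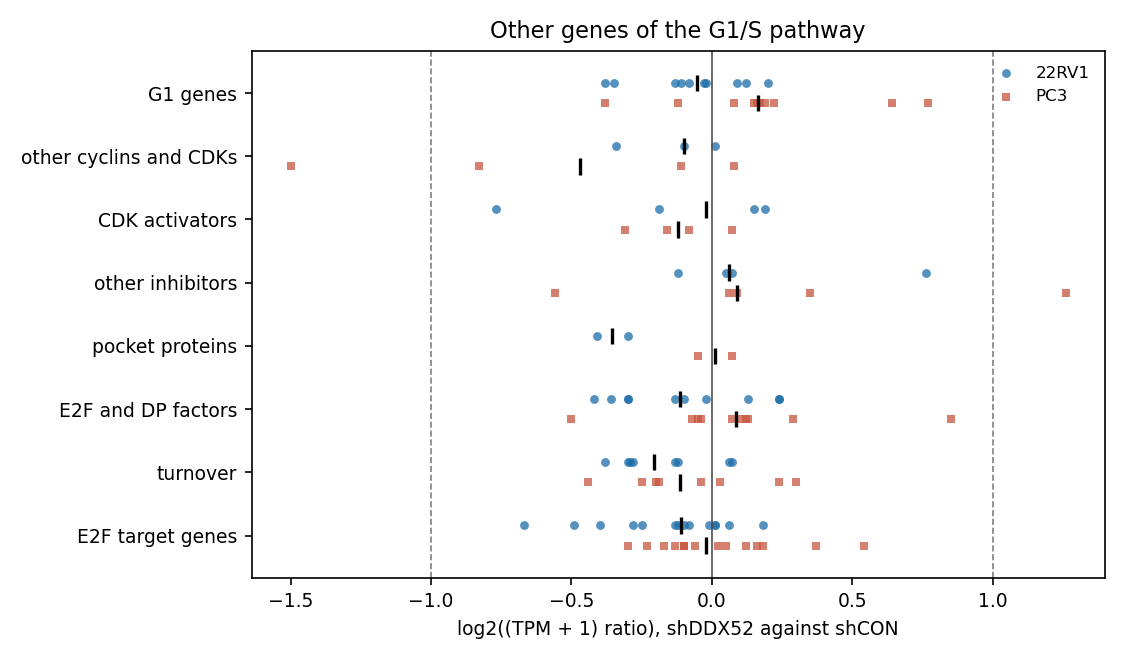
log2 ratio of shDDX52 against shCON for the 10 G1 genes and for the genes of 7 G1/S lists in 22RV1 (circles) and PC3 (squares), with black ticks at the medians and dashed lines at a 2-fold change. The points beyond a dashed line are CDKN1A (1.26) and CDK3 (−1.50), both in PC3.

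Over the 4 libraries, the genes whose pattern lay nearest to that of CDK4 among 5244 genes with at least 10 TPM in every library were FOXM1, COX7A2 and WDR77, with distances of 0.028, 0.033 and 0.039 between log2(TPM + 1) values centred on each gene. FOXM1 was 96.0 and 92.3 TPM in 22RV1 and 64.7 and 60.5 TPM in PC3. For CCND1 the nearest were CITED2, FECH and NFIX, with distances of 0.240, 0.260 and 0.304. A likeness over 4 libraries is a description with few points.

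Several members share exon bases with genes on the opposite strand, and the sources used here do not state whether reads were counted by strand. In GENCODE 29 on GRCh38, CDK4 (chromosome 12, 57747727 to 57756013, minus strand) shares 43.2% of its exon bases with TSPAN31, which was between 16.9 and 28.8 TPM. CCNE2, at no more than 3.84 TPM, shares 37.0% with INTS8, which was 7.43 and 7.90 TPM in 22RV1 and 21.2 and 14.3 TPM in PC3, so its values are uncertain. CCND1 (chromosome 11, 69641087 to 69654474, plus strand) shares 10.3% with LTO1, at 14.1 to 26.5 TPM. CDK2 (chromosome 12, 55966769 to 55972784, plus strand) shares 2.29% with PMEL, at 2.57 to 3.92 TPM, and 14.5% with an antisense gene listed at 0. The processed pseudogenes CDK4P1, CCND3P1 and CCND3P2 were listed at 0 in all 4 libraries.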

How the data were processed

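RNA of 4 cell populations was sequenced, 1 library per condition. Reads were mapped by the authors with a sequencing company's cloud service, and the deposited values are TPM per Ensembl gene in 1 table per cell line. The submitters' processing notes name HISAT2, CASAVA and hg19, with no versions given, while 58453 of the 60671 identifiers are in GENCODE 29 on GRCh38. The positions given here are therefore those of GENCODE 29. The quantification program, annotation release and strand setting are not given in the sources used here. Library labels gave the groups.

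A pseudocount of 1 was added for log2 ratios, and a gene had to reach 1 TPM in 1 of the compared libraries. A change was counted at 2-fold or 1.5-fold. Gene types came from GENCODE 29, symbols from a table of gene names, which named 42020 identifiers, and promoter windows from RefSeq. The members, lists and comparisons were chosen with earlier results of these data known. Genes named were the members, DDX52, MYC, list genes past 2-fold, the highest gene of each list, and the 3 genes nearest to CDK4 and to CCND1. The cell line markers, the overlapping genes, pseudogenes and genes of the pools are context. List genes past other thresholds were chosen after their values were seen. The calculation of ratios and calls was tested on simulated data. Alternatives covered pseudocount, filter, scaling and fold. Computation used pandas 2.3.3 and numpy 2.4.6 in Python 3.11.15, with matplotlib 3.10.9 for plots.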

Additional observations from a re-analysis of the deposited data

Results flagged for a closer look

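With 1 library per condition, a difference between the cell lines could be noted only where a log2 ratio lay on opposite sides of 0, and none of these differences was tested. Of the members, 5 met this, each below 0 in 22RV1 and above 0 in PC3. The share of all genes with such opposite signs was not computed, so this count has no background. Taken singly, 58.8% of all genes were below 0 in 22RV1 and 46.3% were above 0 in PC3. The log2 ratio in PC3 minus that in 22RV1 was 0.80 for CDK2, 0.51 for CDK6, 0.33 for CCNE2, 0.32 for CCND3 and 0.25 for CDKN1B. CCND1, above 0 in both cell lines, did not meet the rule, though its difference was 0.56. The 22RV1 log2 ratio of CDK2 was only −0.02 and turned to 0.05 when centred on all genes, so its opposite sign depends on the scaling, and that of CDKN1B does too, since its 22RV1 value moved from −0.08 to 0.00 with the same centring. CDK6 and CCNE2 were under 4 TPM in every library. Among list genes past 2-fold or highest in their list, CDK3 had a difference of −1.50 and MNAT1 one of −0.51. Both were above 0 in 22RV1 and below 0 in PC3, but the 22RV1 log2 ratio of CDK3 was only 0.01, from 1.26 and 1.27 TPM. E2F7 (1.15), CDC25A (0.85), RBL1 (0.48) and CCNA2 (0.42), list genes named for other reasons, were below 0 in 22RV1 and above 0 in PC3.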

How the results depend on the processing

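No paired analysis was possible because, within a cell line, each comparison holds 1 shCON and 1 shDDX52 library. A fit of both cell lines together, with the cell lines as 2 pairs, was not run. A value was taken as unmoved when it stayed within 0.1 on the log2 scale, and a count when it stayed within 1.5 times. Of the 118 alternative values for medians and counts over all members or all list genes, 104 were unmoved and 14 moved. TPM recomputed over nuclear protein-coding genes moved the median log2 ratio of all genes in PC3 by 0.123, that of the members to 0.27 and that of all list genes to 0.09. At 1.5-fold, 2 members were higher in PC3, and the list genes lower and higher were 2 (CDC25A and CDC6) and 1 (CDKN1A) in 22RV1 and 2 (CDK3 and CCNA1) and 2 (CDKN1A and E2F7) in PC3, of which CDC25A, CDC6, CCNA1 and E2F7 are named after their values were seen. Of all genes, 8.47% were lower and 5.61% higher at 1.5-fold in 22RV1, and 9.84% and 8.95% in PC3. At 2-fold in PC3, a pseudocount of 0.1 gave 2 list genes lower and 2 higher, CCNA1 and E2F7 being added. A pseudocount of 5 or a filter at 5 TPM gave 0 lower, because CDK3 is weakly expressed. For PC3 against 22RV1 control cells the member median was −0.78 with a pseudocount of 0.1, −0.41 with one of 5 and −0.94 with a filter at 5 TPM, which leaves 7 members. The comparison in the shDDX52 libraries was added after seeing the data. A reversal was scored only where the main value was a 2-fold difference or more, and none was found. No member value or median between shDDX52 and shCON was that large, so none of these could be scored. In the main comparisons no member crossed 2-fold between shDDX52 and shCON under the alternatives run for pseudocount, filter and scaling. Depth is unknown, so the precision of low values such as those of CDK6, RB1 and CCNE2 cannot be stated.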
